A study of Rattus norvegicus with 6 samples.

Results

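The genes examined here encode the machinery that burns fatty acids in mitochondria and peroxisomes, together with a small set of lipid-handling genes under the same nuclear receptor. They were taken by gene name, 34 in all, and sorted by role: the receptor Ppara, 4 genes of the carnitine shuttle, 10 of mitochondrial beta-oxidation, 3 that carry its electrons, 7 peroxisomal genes, 3 acyl-CoA thioesterases and 6 genes of fuel choice, lipid binding and lipid storage. All 34 had a probe on the array and 33 could be tested, out of 31179 genes tested in all. The remaining gene, Ucp3, an inner membrane carrier of muscle and brown fat, was not well above background on any array with either of its 2 probes.

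The data are 1-colour Agilent arrays of total RNA from the renal cortex of male Sprague-Dawley rats, which were 5 weeks old when bought and were kept on a basal diet. The control group (vehicle) received corn oil and the treated group received benzyl acetate, a fragrance and flavour ester, at 1000 mg/kg/day, each for 4 weeks. Each group holds 3 animals, labelled as biological replicates, with 1 array an animal. The route of dosing, and whether the treated rats also received corn oil, are not given in the sources used here.

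Long-chain fatty acids enter mitochondria as carnitine esters and are then shortened in repeated rounds of dehydrogenation, hydration, oxidation and thiolysis. The dehydrogenases pass their electrons through the electron transfer flavoprotein to the respiratory chain, whereas oxidation in peroxisomes passes them to oxygen and makes hydrogen peroxide, which catalase removes. PPARα, a nuclear receptor activated by fatty acids and fibrate drugs, turns on many genes of both compartments, and the proximal tubule of the kidney cortex relies on fatty acid oxidation for much of its energy.

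A level is a log2 processed signal set against its own array, so that 0 is the 75th percentile of an array and 1 unit is a 2-fold step. The values of a gene follow replicates 1, 2 and 3. A difference is benzyl acetate minus vehicle. Because every array is scaled to itself, a shift common to the bulk of transcripts is invisible in these values. Signals of different probes are not compared, because probes differ in brightness for reasons other than abundance. In whole tissue, fewer cells of a type and less RNA per cell cannot be told apart.

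Of 61537 probes, 70.5% to 72.0% per array exceeded background clearly in vehicle and 69.0% to 69.8% with benzyl acetate, and the 75th percentile of the raw signal ran from 1003 to 1057 intensity units in vehicle and from 883 to 990 with benzyl acetate. Both measures separated the groups, at p = 0.1 (exact permutation test, two-sided; no lower p is possible with 3 arrays a group), and their part in the results was not tested. All arrays correlated at 0.990 to 0.994 with each other. Benzyl acetate replicate 3 stood apart: it scored 50.1 on the first principal component, which held 26.2% of the variance, where the others scored -24.4 to -0.23. It also had the lowest 75th percentile and a log2 ratio of 3' to 5' Gapdh control probes of 2.60 against 2.37 to 2.45. All 11 proximal tubule markers were detected, including the phosphate transporter Slc34a1 (8.44 to 8.68) and the endocytic receptor Lrp2 (6.50 to 6.62).

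No gene of the array was called at a limma adjusted p under 0.05 in either direction (background 0%), and so none of the 33 fatty acid oxidation genes was. The lowest adjusted p was 0.271 over all genes and 0.751, for catalase, among the fatty acid oxidation genes. None of the 33 reached an unadjusted p under 0.05, where 6.74% of all genes did. With the probe that stood for each gene, the groups did not overlap in 1 of the 33, catalase, and in 12.8% of all genes. By sign, 15 genes were higher on average with benzyl acetate and 18 lower, with a median difference of -0.015 against 0.012 over all genes. A missed threshold does not show equal levels, so the intervals matter more: the 95% interval lay inside a 1.5-fold difference for 24 of 33 genes and inside a 2-fold difference for 30. The same held for 77.1% and 92.2% of all genes with a symbol.

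**Figure D1:**
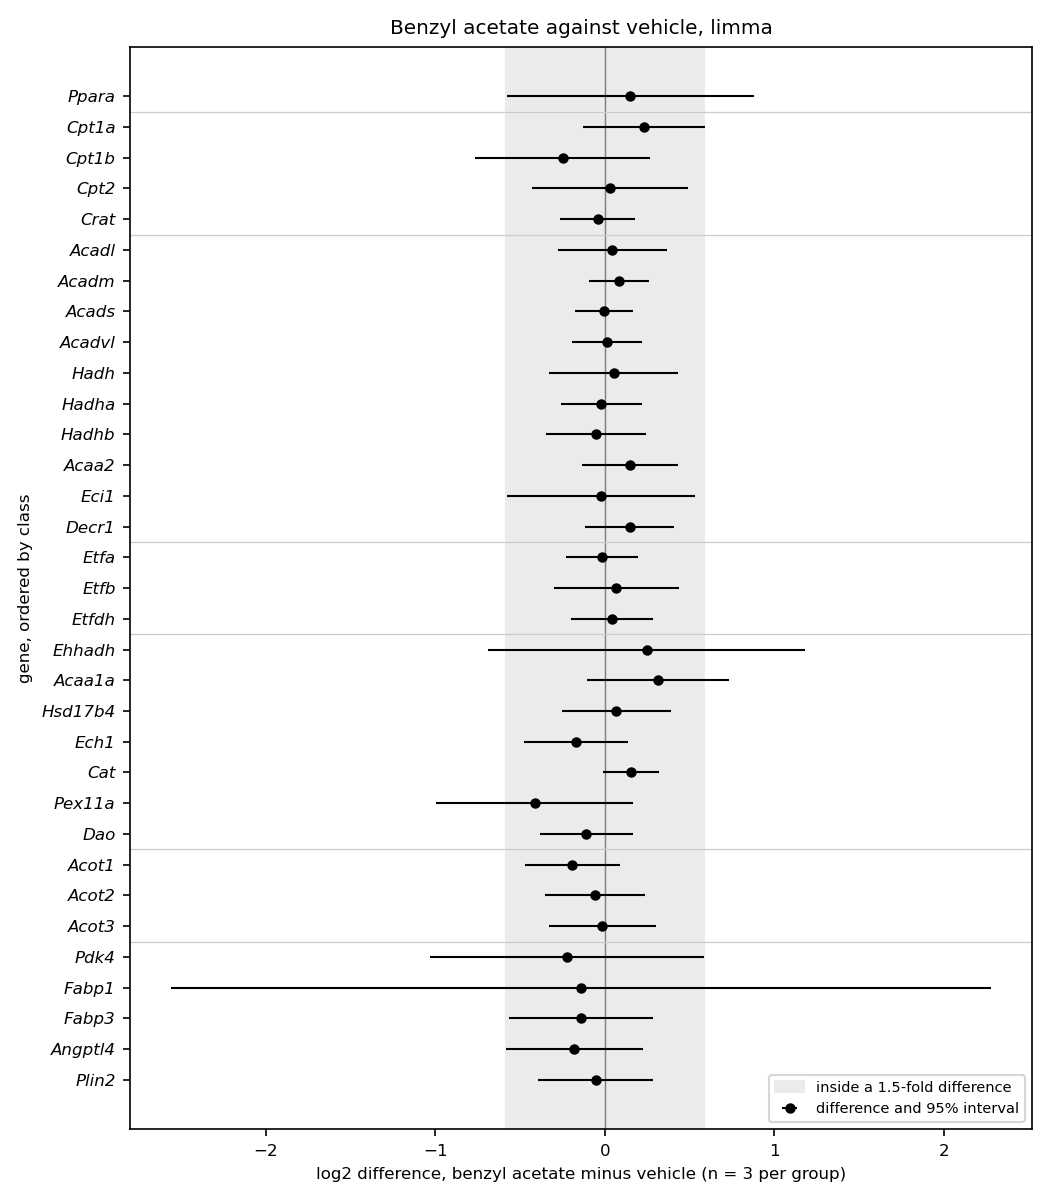
Log2 difference, benzyl acetate minus vehicle, with its 95% limma interval for each of the 33 genes tested (3 arrays per group), ordered by role and parted by lines; the grey band spans differences under 1.5-fold. Every interval crosses 0, the one of Fabp1 from -2.56 to 2.28 and the one of Cat from -0.014 to 0.32.

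Ppara itself, the receptor that gives the responsive genes their name, had 1 high array in each group. It read -0.07, -0.90 and -0.53 in vehicle and -0.54, -0.68 and 0.17 with benzyl acetate, and the 2 groups overlapped throughout. The limma difference was 0.15 (95% interval -0.58 to 0.88, adjusted p = 0.949). Its other probe gave the same array order at the top and bottom, with vehicle replicate 2 lowest (-0.96) and benzyl acetate replicate 3 highest (0.18). Without benzyl acetate replicate 3 the difference was -0.11, and without vehicle replicate 2 it was -0.05.

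The carnitine shuttle showed no common direction, with 2 genes higher and 2 lower and a median difference of -0.007. Cpt1a, the liver-type carnitine palmitoyltransferase of the outer membrane and the main control point of entry, read 2.87, 2.92 and 3.34 in vehicle and 3.40, 3.23 and 3.18 with benzyl acetate. Its 3 treated arrays lay above vehicle replicates 1 and 2 and around replicate 3. The difference was 0.23 (95% interval -0.13 to 0.59, limma adjusted p = 0.809). Cpt1b, the muscle form, read 1.63, 1.98 and 2.06 in vehicle and 1.68, 1.98 and 1.26 with benzyl acetate, a difference of -0.25 (95% interval -0.77 to 0.27, limma adjusted p = 0.851). Benzyl acetate replicate 3 was the low array, and without it the difference was -0.06. The 2 dimmer probes of Cpt1b gave -0.50 and -0.03, so its probes differed in size. On the dimmest one the groups did not overlap, where 5.31% of all genes had separate groups in this direction with the probe that stood for each. The dimmest probe read -4.94, -4.87 and -4.92 in vehicle and -5.41, -5.71 and -5.11 with benzyl acetate (limma unadjusted p = 0.0174, adjusted p = 0.677).

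Cpt2, which turns the carnitine ester back into acyl-CoA inside the mitochondrion, read 3.21, 3.01 and 3.69 in vehicle and 3.34, 3.19 and 3.46 with benzyl acetate. All 3 treated values fell within the vehicle range. Crat, which moves short acyl groups onto carnitine, read 6.35, 6.29 and 6.55 in vehicle and 6.32, 6.41 and 6.34 with benzyl acetate. Its vehicle replicate 3 was the only array above 6.41. The differences were 0.03 for Cpt2 and -0.04 for Crat, with limma adjusted p of 0.99 and 0.954.

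For the mitochondrial beta-oxidation genes, all 10 intervals lay inside a 1.5-fold difference, against 2 of 4 for the shuttle. Of the 10, 6 were higher on average and 4 lower, with a median of 0.028, and limma adjusted p ran from 0.831 to 0.996. The first step belongs to the acyl-CoA dehydrogenases, which differ in the chain length they take. Acadvl, for very long chains, read 4.20, 4.30 and 4.45 in vehicle and 4.28, 4.35 and 4.35 with benzyl acetate. Acadl, for long chains, read 6.19, 6.12 and 6.49 in vehicle and 6.31, 6.16 and 6.46 with benzyl acetate. For both, vehicle replicate 3 was the highest array and the treated values lay within the vehicle range, with differences of 0.01 and 0.04. Acadm, for medium chains, read 6.42, 6.46 and 6.39 in vehicle and 6.44, 6.60 and 6.48 with benzyl acetate, a difference of 0.08 (95% interval -0.09 to 0.26). Acads, for short chains, read 5.50, 5.52 and 5.55 in vehicle and 5.44, 5.54 and 5.59 with benzyl acetate. These were the 2 tightest genes of the role: Acads spanned 1.11-fold over the 6 arrays and Acadm 1.16-fold.

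The later steps are shared between the trifunctional protein of the inner membrane and soluble enzymes. Hadha, the hydratase and dehydrogenase subunit of the trifunctional protein, read 3.19, 3.12 and 3.43 in vehicle and 3.24, 3.23 and 3.20 with benzyl acetate. Hadhb, its thiolase subunit, read 2.71, 2.65 and 3.05 in vehicle and 2.78, 2.80 and 2.67 with benzyl acetate. In both subunits vehicle replicate 3 was high and the other 5 arrays lay close together, and the differences were -0.02 and -0.05. Hadh, the soluble short-chain dehydrogenase, read 7.09, 7.47 and 7.60 in vehicle and 7.53, 7.52 and 7.27 with benzyl acetate, a difference of 0.05, with vehicle replicate 1 the low array. Acaa2, the soluble thiolase, read 5.96, 5.86 and 6.26 in vehicle and 6.20, 6.13 and 6.19 with benzyl acetate. Its treated arrays sat above vehicle replicates 1 and 2 and below replicate 3, a difference of 0.15 (95% interval -0.13 to 0.43, limma adjusted p = 0.836).

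Eci1 and Decr1 prepare unsaturated chains for oxidation by moving or removing double bonds. Eci1, an isomerase, read 5.92, 6.12 and 6.72 in vehicle and 6.44, 6.19 and 6.05 with benzyl acetate. It was the most variable mitochondrial oxidation gene, spanning 1.74-fold within the vehicle group, and its difference was -0.02 (95% interval -0.58 to 0.53). Decr1, a dienoyl-CoA reductase, read 5.46, 5.46 and 5.71 in vehicle and 5.57, 5.68 and 5.81 with benzyl acetate. It had the lowest adjusted p of the role, 0.831 by limma, with a difference of 0.15 (95% interval -0.11 to 0.41).

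The electron carriers differed little. Etfa, the large subunit of the electron transfer flavoprotein, read 3.18, 3.15 and 3.32 in vehicle and 3.08, 3.26 and 3.26 with benzyl acetate. Etfb, the small subunit, read 6.09, 6.26 and 6.55 in vehicle and 6.16, 6.47 and 6.47 with benzyl acetate. The arrays of benzyl acetate replicates 2 and 3 were near vehicle replicate 3 in both subunits, and those of replicate 1 were at or near the bottom. Etfdh, the membrane oxidoreductase that hands the electrons to ubiquinone, read 3.52, 3.35 and 3.31 in vehicle and 3.56, 3.30 and 3.44 with benzyl acetate. The differences were -0.01, 0.07 and 0.04, with limma adjusted p from 0.955 to 0.988.

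The peroxisomal genes held the largest differences on either side, 0.31 for Acaa1a and -0.41 for Pex11a. They also held the only gene whose groups did not overlap with the probe that stood for it. By sign, 4 were higher and 3 lower, with a median of 0.069, and 4 of 7 intervals lay inside a 1.5-fold difference. Cat, catalase, read 2.85, 2.95 and 2.83 in vehicle and 2.99, 3.02 and 3.07 with benzyl acetate. The vehicle mean was 2.88 ± 0.07 and the treated mean 3.03 ± 0.04 (SD, n = 3), and the lowest treated array (2.99) lay above the highest vehicle array (2.95). The limma difference was 0.15 (95% interval -0.014 to 0.32, unadjusted p = 0.0658, adjusted p = 0.751), and over all genes 7.51% had separate groups in this direction and 5.31% in the other. The difference was 0.13 to 0.19 whichever array was left out.

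Promoter windows of RefSeq on the GRCr8 assembly, from 250 bases before to 50 after the start, were read for 29 of the 34 genes. Their letters were searched on both strands for AGGNCANAGGNCA, the direct repeat with 1 base between its arms that PPARα binds with RXR, and for the single arm AGGTCA, which lies inside some matches of the repeat. The repeat was found in 1 of 29 genes, Fabp1, against 0.415% of 33469 windows. AGGTCA was found in 8 of 29 (27.6%), namely Acadvl, Cat, Dao, Eci1, Fabp1, Hadhb, Hsd17b4 and Ucp3, against 16.2% of all windows. A match is a description of the letters and not a bound site, and no match says only that these letters are not in this window. The windows of Cat, the gene with separate groups, Pex11a, the gene of largest difference, and Fabp1, the gene with the full repeat and the widest spread, are shown with matches in capitals, each 5' to 3' on the strand of the gene. Fabp1 lies at chr4:104749090-104749389 on the plus strand, with the repeat read on the opposite strand 77 to 65 bases before the start. Cat lies at chr3:110329477-110329776 on the minus strand, with AGGTCA 169 to 164 bases before the start. Pex11a lies at chr1:143096442-143096741 on the minus strand and holds no match.
Cat: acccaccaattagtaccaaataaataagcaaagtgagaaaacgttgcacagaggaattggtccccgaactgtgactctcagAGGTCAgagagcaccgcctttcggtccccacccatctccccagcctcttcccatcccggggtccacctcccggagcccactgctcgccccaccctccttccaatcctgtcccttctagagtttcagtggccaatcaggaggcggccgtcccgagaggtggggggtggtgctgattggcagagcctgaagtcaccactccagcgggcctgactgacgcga
Pex11a: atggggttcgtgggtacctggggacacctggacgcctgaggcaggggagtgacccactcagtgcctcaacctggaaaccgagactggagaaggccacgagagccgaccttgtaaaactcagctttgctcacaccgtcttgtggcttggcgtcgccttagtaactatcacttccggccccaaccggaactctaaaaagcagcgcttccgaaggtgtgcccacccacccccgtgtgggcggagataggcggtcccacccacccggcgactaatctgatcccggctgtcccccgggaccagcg
Fabp1: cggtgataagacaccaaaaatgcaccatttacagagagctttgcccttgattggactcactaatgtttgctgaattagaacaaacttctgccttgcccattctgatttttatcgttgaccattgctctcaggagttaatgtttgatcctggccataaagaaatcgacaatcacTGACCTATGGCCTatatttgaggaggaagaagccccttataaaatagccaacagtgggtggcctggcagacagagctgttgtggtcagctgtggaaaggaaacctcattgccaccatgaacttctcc

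Pex11a, a membrane protein that takes part in the division of peroxisomes and a known PPARα target, read 5.26, 5.44 and 5.55 in vehicle and 5.34, 5.19 and 4.47 with benzyl acetate. A single array set the treated mean: benzyl acetate replicate 3 lay far below the other 5, which spanned 5.19 to 5.55. The difference was -0.41 (95% interval -0.99 to 0.17, limma adjusted p = 0.789), and -0.15 without that array. All 3 probes of Pex11a were lowest on it, with differences of -0.41, -0.35 and -0.16. This was also the array with the high Gapdh 3' to 5' ratio of 2.60, whose part in the result was not tested.

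Acaa1a, the peroxisomal thiolase, read 6.30, 6.15 and 6.76 in vehicle and 6.58, 6.82 and 6.76 with benzyl acetate. Its treated arrays lay above vehicle replicates 1 and 2, and replicate 3 lay among them. The difference was 0.31 (95% interval -0.11 to 0.73, limma adjusted p = 0.785). Its 2 other probes gave 0.32 and 0.20, and signal from the near-identical Acaa1b may be shared. Ehhadh, the bifunctional hydratase and dehydrogenase, read 2.81, 2.32 and 3.67 in vehicle and 3.07, 3.64 and 2.82 with benzyl acetate. High and low arrays occurred in both groups over a 2.54-fold span, and the difference was 0.25 (95% interval -0.69 to 1.18). Hsd17b4, the other bifunctional enzyme, which takes branched and very long chains, read 6.32, 6.05 and 6.46 in vehicle and 6.20, 6.40 and 6.45 with benzyl acetate, a difference of 0.07.

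The remaining peroxisomal genes were lower on average with benzyl acetate. Ech1, a dienoyl-CoA isomerase, read 5.03, 4.84 and 5.28 in vehicle and 4.96, 4.86 and 4.81 with benzyl acetate. The difference was -0.17 (95% interval -0.48 to 0.14, limma adjusted p = 0.833). Dao, D-amino acid oxidase, a hydrogen peroxide source of the proximal tubule outside fatty acid oxidation, read 5.52, 5.57 and 5.50 in vehicle and 5.37, 5.26 and 5.64 with benzyl acetate. Vehicle values were tight and treated values fell on both sides of them, for a difference of -0.11 (95% interval -0.38 to 0.16).

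**Figure D2:**
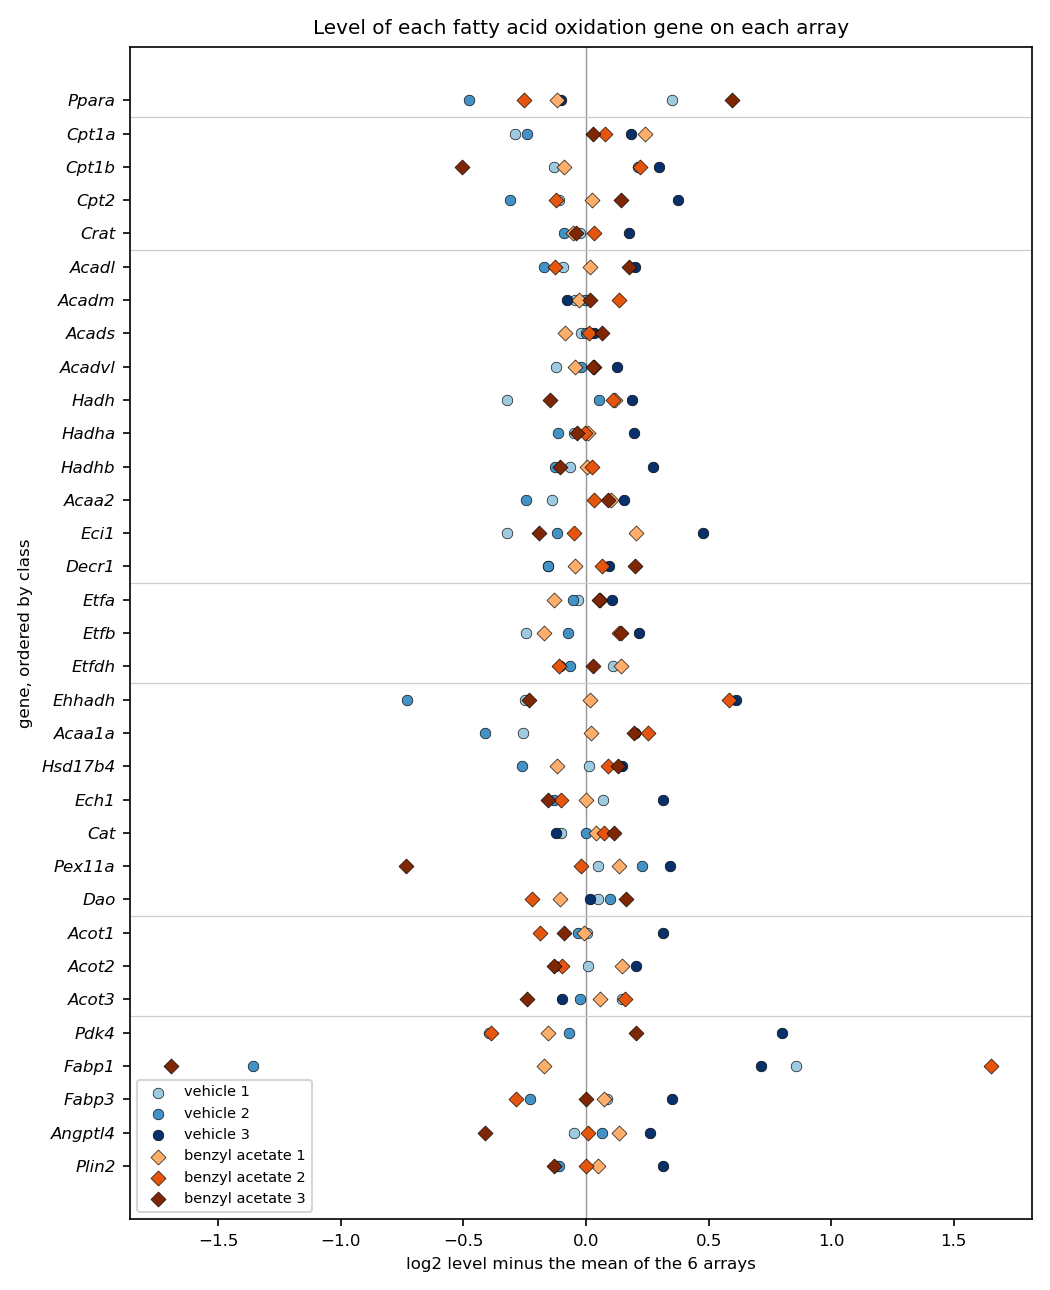
Log2 level of each of the 33 genes on each of the 6 arrays, relative to the mean of the 6, with vehicle arrays as blue circles and benzyl acetate arrays as orange diamonds. The dark blue circles of vehicle replicate 3 are rightmost for 22 genes, and Fabp1 shows the widest scatter, 10.1-fold.

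The 3 acyl-CoA thioesterases, which release free fatty acids from CoA, were all lower on average, with a median of -0.057 and every interval inside a 1.5-fold difference. Acot1, the cytosolic enzyme, read 5.10, 5.07 and 5.41 in vehicle and 5.09, 4.91 and 5.01 with benzyl acetate. The difference was -0.19 (95% interval -0.47 to 0.09, limma adjusted p = 0.796). Acot2, the mitochondrial enzyme, read 4.04, 3.91 and 4.24 in vehicle and 4.18, 3.94 and 3.90 with benzyl acetate. Acot3, a peroxisomal enzyme, read 1.01, 0.84 and 0.77 in vehicle and 0.92, 1.03 and 0.63 with benzyl acetate. Both overlapped fully, with differences of -0.06 and -0.02. These genes are close relatives, and probes may share signal between them.

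The 5 tested genes of fuel choice, lipid binding and storage were also all lower on average, with a median of -0.141, and limma adjusted p ran from 0.859 to 0.992. This direction rested on vehicle replicate 3, without which Pdk4 (0.12), Fabp1 (0.18), Fabp3 (0.00042) and Plin2 (0.088) were higher and the median was 0.088. Pdk4, the kinase that shuts pyruvate out of oxidation when fat is burned, read -2.77, -2.45 and -1.58 in vehicle and -2.54, -2.76 and -2.17 with benzyl acetate. Vehicle replicate 3 was the high array. The difference was -0.22 (95% interval -1.03 to 0.58). Angptl4, a secreted inhibitor of lipoprotein lipase, read 4.12, 4.23 and 4.43 in vehicle and 4.30, 4.18 and 3.76 with benzyl acetate. Benzyl acetate replicate 3 was lowest with both probes of Angptl4, and the difference of -0.18 was -0.02 without it. Plin2, the coat protein of lipid droplets, read 4.66, 4.67 and 5.10 in vehicle and 4.83, 4.78 and 4.65 with benzyl acetate, a difference of -0.05.

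The 2 fatty acid binding proteins behaved differently from each other in spread. Fabp3, the heart form, read 4.88, 4.56 and 5.14 in vehicle and 4.86, 4.51 and 4.79 with benzyl acetate, a difference of -0.14 (95% interval -0.57 to 0.29). Fabp1, the liver form, read -1.46, -3.67 and -1.60 in vehicle and -2.48, -0.66 and -4.00 with benzyl acetate. Its arrays spanned 10.1-fold, with a low array in each group, where 22 of the 33 genes spanned under 1.5-fold. The difference of -0.14 has a 95% interval from -2.56 to 2.28, or 0.17-fold to 4.85-fold, so these data limit the effect on Fabp1 only loosely in either direction. The dimmer probe of Fabp1 ordered the arrays alike except that vehicle replicate 2 (-4.39) was lowest instead of benzyl acetate replicate 3 (-3.74), and its difference was 0.30.

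**Figure D3:**
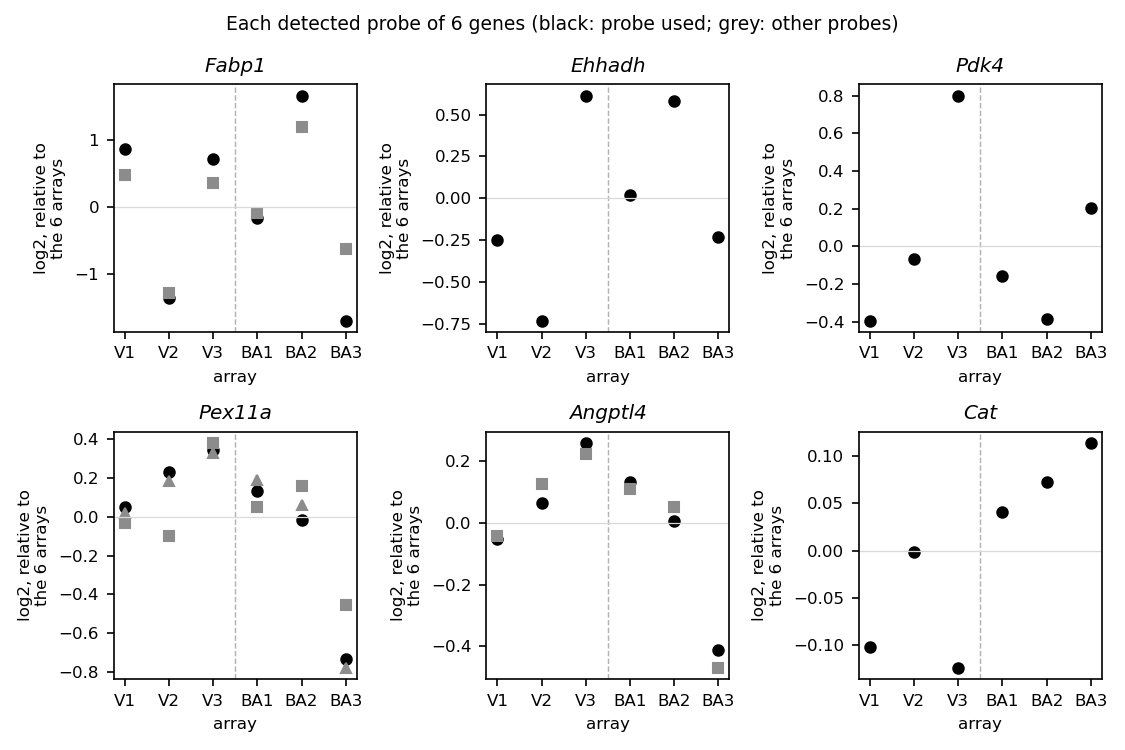
Log2 level on each array, relative to the mean of the 6, of every detected probe of Fabp1, Ehhadh, Pdk4, Pex11a, Angptl4 and Cat (V, vehicle; BA, benzyl acetate; black, the probe used; grey, other probes); the vertical scale differs between panels. All 3 probes of Pex11a and both of Angptl4 are lowest on BA3, and the 2 probes of Fabp1 move together over the arrays.

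Set side by side, the signed medians of the mitochondrial and peroxisomal steps both lay near 0, but the sizes of the differences did not match. Regardless of sign, the median size was 0.045 for the mitochondrial genes and 0.170 for the peroxisomal ones. Intervals lay inside a 1.5-fold difference for 15 of 17 and 4 of 7. Over all genes the median size was 0.093. Among the further genes of the pathway read below, the contrast was smaller. The median size was 0.067 for 29 other mitochondrial genes and 0.099 for 44 other peroxisomal genes, with 86.2% and 84.1% of intervals inside a 1.5-fold difference. Whether any of these sets differ was not tested. The 17 mitochondrial genes (shuttle, beta-oxidation and electron transfer) had a median difference of 0.029, with 10 higher and 7 lower, and the 7 peroxisomal genes a median of 0.069. The 20 tested genes known as PPARα-responsive, of which 7 are also among the mitochondrial genes and 5 among the peroxisomal ones, had a median of -0.053, with 7 higher and 13 lower. The other 13 genes had a median of 0.029, with 8 higher and 5 lower. The class was picked from genes that textbooks name as PPARα targets, so these 13 are not a set known to be unresponsive. No p is attached to these medians, and single vehicle arrays turned their signs. The PPARα-responsive median was 0.071 without vehicle replicate 3, and the peroxisomal one -0.058 without vehicle replicate 2. The mitochondrial median was -0.034 without vehicle replicate 1 and just below 0 without vehicle replicate 2. That of the other 13 genes was -0.034 and -0.045 without vehicle replicates 1 and 2. The 7 higher PPARα-responsive genes were Cpt1a, Ehhadh, Acaa1a, Cat, Decr1, Acadl and Acadm. The 13 lower were Pdk4, Angptl4, Fabp1, Fabp3, Plin2, Cpt1b, Ech1, Pex11a, Hadha, Hadhb and all 3 thioesterases. No gene was past the threshold, and several signs, among them those of Ehhadh, Pdk4 and Acot3, turned when 1 array was left out. The signs are therefore not read as a response or as its absence.

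Class means by array showed more spread among vehicle arrays than between the groups. Vehicle replicate 1 was alone on its slide and all other arrays shared another, so for it slide and animal cannot be told apart. The mitochondrial genes averaged -0.12, -0.09 and 0.17 log2 units from their 6-array mean in vehicle and 0.013, 0.030 and -0.003 with benzyl acetate. The SD of this class mean was 0.16 in vehicle and 0.017 with benzyl acetate. The peroxisomal genes averaged -0.06, -0.17 and 0.22 in vehicle and -0.002, 0.09 and -0.07 with benzyl acetate. The PPARα-responsive genes averaged -0.04, -0.18 and 0.27 in vehicle and 0.02, 0.10 and -0.18 with benzyl acetate. Fabp1 carried part of the last values: without it the PPARα-responsive genes averaged -0.09, -0.11 and 0.25 in vehicle and 0.03, 0.02 and -0.10 with benzyl acetate. All 3 classes had the same top array, vehicle replicate 3. Whether the classes differ in spread was not tested.

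**Figure D4:**
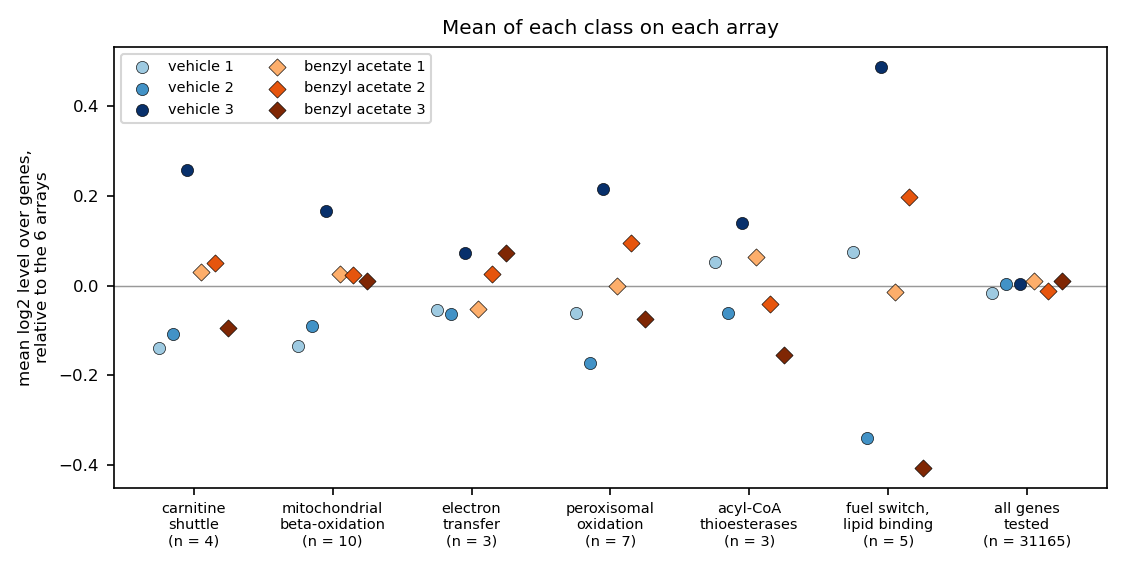
Mean over the genes of each role of the log2 level relative to the 6-array mean, for the 6 arrays; the last column gives all genes measured on all arrays. Vehicle replicate 3 is the top point for 5 of the 6 roles, from 0.14 for thioesterases to 0.49 for fuel switch and lipid binding, and 0.43 for the latter without Fabp1; all genes stay near 0, as the scaling sets them.

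Vehicle replicate 3 was the array on which these genes were highest. It was the top array for 22 of 33 genes (66.7%), against 14.9% of all genes, and vehicle replicates 1 and 2 were the top array for none of them. It lay above both other vehicle arrays for 26 of the 33 genes, against 35.1% of all genes. The median gene was 0.33 log2 units higher on vehicle replicate 3 than on vehicle replicate 2, where the median of all genes was 0.0026 higher, and 0.27 higher than on vehicle replicate 1, against 0.018. Ppara aside, each role took part: vehicle replicate 3 was the top array for 3 of 4 shuttle genes, 7 of 10 beta-oxidation genes, 2 of 3 electron carriers, 4 of 7 peroxisomal genes, 2 of 3 thioesterases and 4 of 5 genes of fuel choice and lipid handling. Of 17 further detected probes of 13 of these genes, 9 were also highest on that array. The low end was shared between vehicle replicate 2, lowest for 11 genes, and benzyl acetate replicate 3, lowest for 8.

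**Figure D5:**
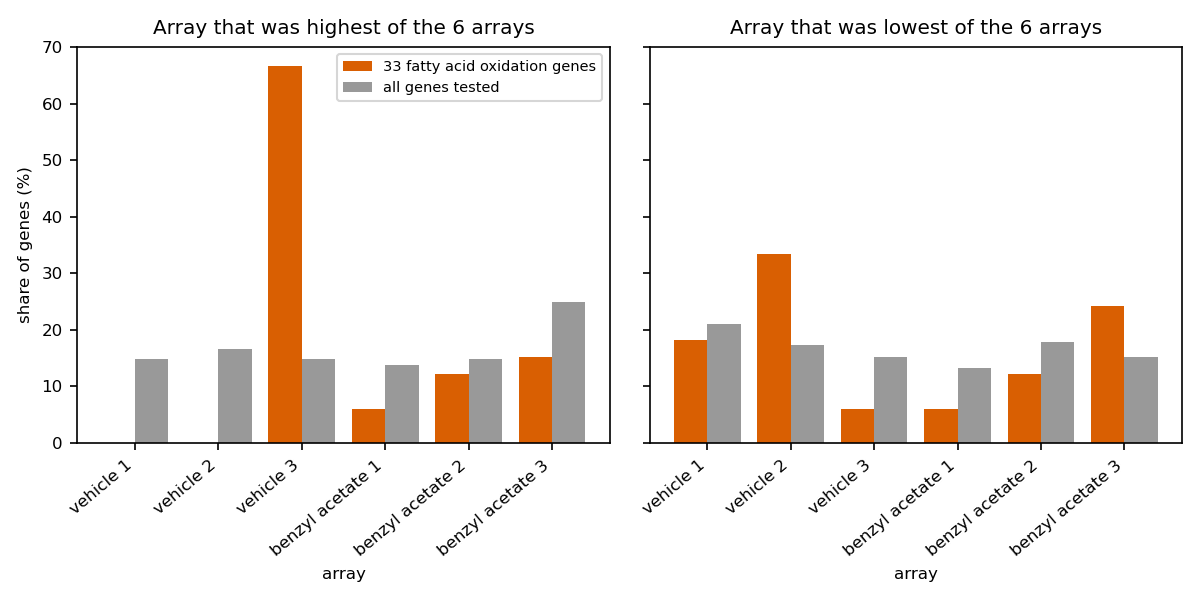
Share of the 33 genes (orange) and of all genes tested on all arrays (grey) for which each array was the highest (left) or the lowest (right) of the 6. Vehicle replicate 3 is highest for 66.7% of the fatty acid oxidation genes and 14.9% of all genes.

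The difference between the groups was smaller than the range within vehicle for 29 of the 33 genes, against 82.1% of all genes. Leaving out vehicle replicate 3 turned the count to 25 genes higher and 8 lower, with a median of 0.079, and 3 genes then had an unadjusted p under 0.05 (9.09% of the 33, with 7.58% of all genes). These were Acaa1a at 0.49, Cpt1a at 0.38 and Acaa2 at 0.27, with limma adjusted p of 0.488, 0.499 and 0.561. Leaving out benzyl acetate replicate 3 also gave 15 higher and 18 lower, but not the same genes: Ppara, Cpt2 and Acadl turned lower and Eci1, Acot3 and Fabp1 turned higher. Dao, at -0.22, was then the 1 gene with an unadjusted p under 0.05, with 5.77% of all genes. Over the 6 fits that left out 1 array, 21 of the 33 genes changed sign at least once and 6 moved by more than 0.2.

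Markers of T cells, and in part those of the thick ascending limb, also set vehicle replicate 3 apart. Of 5 T cell markers 4 were tested, and Cd2 passed the detection filter through the vehicle group alone. Cd3d, Cd3g and Cd8a were detected on all arrays and were highest on vehicle replicate 3. They read 0.74, 0.10 and -2.51 on it, and at most -0.18, -1.54 and -4.08 on the others. Of the 4 thick ascending limb markers, Umod (7.54) and Slc12a1 (3.70) were lowest on it, whereas Egf was second highest and Cldn16 was lowest on benzyl acetate replicate 3. Their sum, mostly Umod, was 237 on vehicle replicate 3 against 301 to 422, and all 4 were highest on vehicle replicate 1. Summed podocyte markers were 32.0 on vehicle replicate 3, within the 28.2 to 38.1 of the other arrays. Distal and collecting duct markers summed to 293, within 226 to 329. Macrophage markers summed to 75.7, within 56.3 to 85.9, although 3 of 5 were highest on vehicle replicate 3. The summed signal of the 11 proximal tubule markers was 2430 on vehicle replicate 3, within the 2357 to 2610 of the others. The straight proximal tubule transporter Slc7a13, however, read 5.51, 5.54 and 2.63 in vehicle and 4.62, 4.47 and 2.74 with benzyl acetate, low on vehicle replicate 3 and on benzyl acetate replicate 3. The part of these markers in the levels of the fatty acid oxidation genes was not tested.

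Fat and muscle express Cpt1b, Fabp3, Plin2, Angptl4 and Ucp3, so their markers were read as well. Of 12 white adipocyte markers 10 were tested, and leptin was not well above background. By sign, 5 were higher and 5 lower with benzyl acetate, Fabp4 among the lower. Lpl differed by 0.38 and Cfd by -0.71 (limma adjusted p = 0.727 and 0.707), and the groups of Cfd did not overlap. The sum of the white adipocyte markers without Pck1, which the proximal tubule expresses for glucose synthesis, was 2.63, 3.05 and 2.01 in vehicle and 2.93, 3.03 and 2.31 with benzyl acetate, lowest on vehicle replicate 3. Fabp4, the adipocyte binding protein, read -3.95, -2.95 and -5.86 in vehicle and was not well above background on any benzyl acetate array. It passed the detection filter through the vehicle group alone, so no difference is read from it. Of 7 brown adipocyte markers 4 were tested, summing to 1.32 to 1.63 on all arrays, and Elovl3 and Dio2 were not well above background. All 4 were lower on average with benzyl acetate. Ucp1, a dim part of that sum, was detected on all arrays and its groups did not overlap. It differed by -0.32 (limma adjusted p = 0.702), where 5.31% of all genes had separate groups in this direction. Of 10 striated muscle markers 5 were tested, and Myl2 and Actn2 were not well above background on any array. The 5 summed to 0.59 to 0.73, highest on vehicle replicate 3, and most of the sum was Mb. Acta1, Myh7 and Tnnt3 were highest on vehicle replicate 3, whereas Ckm was highest on vehicle replicate 2 and Mb on benzyl acetate replicate 3. The part of fat and muscle cells in the levels of the fatty acid oxidation genes was not tested.

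Beyond these genes, 119 of 132 further genes of the pathway were tested, and none was called by limma (61 higher, 58 lower, median 0.003). At an unadjusted p under 0.05 were 2 in the higher direction and 4 in the lower, against 3.82% and 2.92% of all genes. Of those 4, Fabp4 and Cyp8b1 passed the detection filter through the vehicle group alone, where they were high, and Pxmp4 and Retsat were detected in both groups. Among 29 other mitochondrial genes the median was 0.010, with Echs1, a hydratase, at 0.05, Gcdh, the glutaryl-CoA dehydrogenase, at 0.18, Acad11, an acyl-CoA dehydrogenase, at 0.18 and Acsl5, an acyl-CoA synthetase, at -0.11. Vehicle replicate 3 was the top array for 14 of them. Among 44 other peroxisomal genes the median was -0.002 and vehicle replicate 3 was the top array for 11. There, the thiolases Acaa1b and Scp2 differed by 0.34 and 0.15, the hydroxyacid oxidase Hao2 by -0.05 and the membrane protein Pxmp4 by -0.56 (unadjusted p = 0.0334, limma adjusted p = 0.71).

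Among 31 other PPARα-responsive genes the median was -0.004, with 14 higher and 17 lower. The fatty acid omega-hydroxylases Cyp4a2 and Cyp4a8 differed by 0.09 and 0.11, their relative Cyp4a3 by -0.56 (limma adjusted p = 0.83) and the fatty aldehyde dehydrogenase Aldh3a2 by 0.28 (limma adjusted p = 0.726). Cyp8b1, a hydroxylase of bile acid synthesis, was dim, at -4.85, -5.22 and -5.52 in vehicle, and not well above background on any benzyl acetate array. It too passed the filter through vehicle alone. Retsat, retinol saturase, read 3.70, 3.43 and 4.04 in vehicle and 1.94, 3.60 and 1.91 with benzyl acetate, a difference of -1.24 (unadjusted p = 0.0437, limma adjusted p = 0.733), with 1 treated array inside the vehicle range. Cyp4a3 and Retsat were added after their values were seen. Among 19 nuclear receptors and cofactors the median was 0.015 and none had an unadjusted p under 0.05. Esrra, an orphan receptor of mitochondrial genes, differed by 0.02, the corepressor Ncor1 by -0.003, the coactivator Ppargc1b by 0.25 and the acetyltransferase Crebbp by -0.10.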

How the data were processed

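The deposited scanner tables hold linear intensity. Agilent Feature Extraction 10.7 made them, as the submitters' processing notes say, and the signal used is background-subtracted and unscaled, per the file headers. The 0 or 1 flags for spots well above background and outlying come from the same program, per the file headers. The authors' value table is that signal divided by its 75th percentile (SD of the log2 ratio at most 0.00586, column medians 0.1102 to 0.1148), hence linear, without centring of genes. The log2 signal of 61537 non-control probes, without outlier spots, was shifted by its 75th percentile on each array. Probes well above background on all 3 arrays of a group were kept and named by accession through RefSeq (GRCr8); the brightest probe stood for a gene. Limma 3.58.1 in R 4.3.3 compared the groups (lmFit, eBayes, Benjamini-Hochberg over 31179 genes, threshold 0.05), and was tested on simulated data. A single value per array cannot reach an exact permutation p under 0.1 with 3 against 3.

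Values on all arrays were to be given for genes that led a role in signal or p, had separate groups, or changed sign or moved by over 0.2 without an array; here they are given for all 33. Of other genes, 2 of highest signal and the lowest p in each direction per list were named. Slc34a1, Lrp2, Slc7a13, Fabp4, Cfd, Lpl and Ucp1 were named after their values were seen. For cell type markers the rule covered the fat and muscle lists only, and those of T cells, macrophages and kidney cells were given outside it. Members and lists were chosen with earlier results of these data known. Same-numbered replicates did not deviate together (correlations -0.11, 0.0075 and 0.00095), so they were not paired. Alternatives were a replicate or slide block, other background correction, scaling, filters, probe rules and priors, the authors' value table, array weights, and leaving out each array.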

Additional observations from a re-analysis of the deposited data

How the results depend on the processing

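None of the 33 genes was called by limma in any of 21 alternatives, and their lowest adjusted p over these was 0.44. Besides the fits without a replicate 3 given above, 4 alternatives put 1 gene each at a limma unadjusted p under 0.05. These were Cpt1b with the dimmest probe (0.0174), Acot1 with normexp (0.0267), Cat with a trended robust prior (0.0311) and Acaa1a without benzyl acetate replicate 2 (0.0481). In the main fit 6.74% of all genes were under 0.05, so 1 gene of 33 is no more than the background there. The shares of all genes under these 4 alternatives are not given here. Of 693 differences recomputed, 642 kept their sign and 51, from 21 genes, did not. Many of the 642 could not turn, so the count is no measure of stability. A replicate block, a trended prior and a new adjustment of p leave each difference as it is. The probes of the 33 genes had no outlier spots and were detected on all arrays, so keeping flagged spots or asking for detection everywhere changed nothing. Outside the fits that left out an array, the differences that turned were of the following genes. With slide as a block they were Cpt2 -0.018, Acadvl -0.046, Hadh -0.095, Etfb -0.037, Acot3 0.054 and Fabp1 0.25, and the median of the electron carriers was -0.034. Vehicle replicate 1 is alone on its slide, so these are the same differences as in the fit without it. The slide block is therefore no separate check, and its reversals are counted again among the 51. With normexp background correction they were Cpt2 -0.015, Hadha 0.014 and Etfdh -0.023, and 2 genes of the array were called lower. With median scaling they were Cpt2 -0.00016 and Acadvl -0.017. With the dimmest probe of each gene they were Acadvl -0.0047, Hadh -0.040 and Fabp1 0.30, with the mean over probes Fabp1 0.081, and with array weights Acadvl -0.00080, Acot3 0.028 and Fabp1 0.20. The cause was not tested. Leaving out 1 array at a time gave 0 to 3 genes called higher over the whole array (3 without benzyl acetate replicate 3) and 0 to 2 called lower (2 without benzyl acetate replicate 1, 1 without replicate 3), none of them among the 33. The median of the electron carriers then ran from -0.034 to 0.047 and that of the 13 genes outside the PPARα-responsive class from -0.045 to 0.14, the top value without vehicle replicate 3. Differences that crossed 0 ran over these fits as follows: Ppara -0.11 to 0.36, Cpt2 -0.12 to 0.22, Crat -0.097 to 0.036, Acadl -0.032 to 0.16, Acads -0.041 to 0.036, Acadvl -0.046 to 0.079 and Hadh -0.095 to 0.16. Hadha ran from -0.084 to 0.071, Hadhb from -0.13 to 0.070, Eci1 from -0.19 to 0.21, Etfa from -0.046 to 0.047, Etfb from -0.037 to 0.19, Etfdh from -0.021 to 0.11 and Ehhadh from -0.058 to 0.61. Hsd17b4 ran from -0.045 to 0.16, Acot2 from -0.14 to 0.031, Acot3 from -0.099 to 0.10, Pdk4 from -0.48 to 0.12, Fabp1 from -1.001 to 0.67, Fabp3 from -0.29 to 0.00042 and Plin2 from -0.13 to 0.088. With the replicate number as a block, 0 genes were called higher and 0 lower. The differences cannot change under that block, because each number occurs in both groups. The labels do not say that numbers pair the animals, and the same-numbered arrays did not deviate together. Vehicle replicate 3 was the top array for 21 genes under normexp and for 22 under quantile, median or cyclic loess scaling. A setting added after seeing the data used only probes that matched a symbol. It changed only the adjustment of p, so it could turn no sign. The 3 arrays a group limit the precision, and Fabp1, Pdk4 and Ucp3 were dim.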

Other observations

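A few further PPARα-responsive genes, picked here after their values were seen, had their highest array at vehicle replicate 3 as well. Vnn1, a pantetheinase, read 4.48, 3.99 and 5.05 in vehicle and 4.73, 4.57 and 4.56 with benzyl acetate. Its treated arrays lay close together inside a wide vehicle range, and the limma difference was 0.12 (adjusted p = 0.955). Acsl1, which activates long-chain fatty acids to acyl-CoA, read 5.41, 5.05 and 5.78 in vehicle and 5.47, 5.54 and 5.54 with benzyl acetate. For both genes vehicle replicate 2 was the lowest array. Vehicle replicate 3 was the top array for 12 of the 31 other PPARα-responsive genes tested.

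Cyp4a1, a fatty acid omega-hydroxylase used as a marker of PPARα activation in rat liver, read 5.71, 5.21 and 5.72 in vehicle and 5.56, 5.75 and 5.67 with benzyl acetate. The groups overlapped, with vehicle replicate 2 lowest. Near-identical Cyp4a genes may share signal. Cd36, a fatty acid uptake receptor, read 2.12, 2.35 and 2.21 in vehicle and 2.23, 1.71 and 1.87 with benzyl acetate, a difference of -0.29 (limma adjusted p = 0.771).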
